A study of Mus musculus with 8 samples.

Results

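The transcripts of 9 transcription factor genes of the hepatocyte, Onecut1, Onecut2, Onecut3, Foxa1, Foxa2, Foxa3, Hnf4a, Cebpa and Prox1, were followed in mouse liver with and without HNF6, the protein made by Onecut1. They were taken by symbol from the annotation of the array, which paired each of the 9 with 1 probe set, out of 19540 genes measured. Liver RNA had been hybridised to 8 Affymetrix arrays, 4 labelled WT and 4 labelled HNF6KO. All 8 samples came from 12-week-old males of strain C57B/6 on normal chow, without treatment, at ZT10, given as 5 pm. HNF6KO stands for HNF6-depleted liver, and the labels do not state the allele, the promoter or vector behind the depletion, or the cells it reached. Nor do they say whether each array is a separate animal, so the p-values reflect only how far these samples spread, and precision is limited by having 4 arrays per group.

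The ONECUT proteins bind DNA through a single cut domain and a homeodomain, and HNF6 is the member best known in liver, where it takes part in bile duct and hepatocyte development. The FOXA proteins are pioneer factors that open chromatin at liver genes. HNF4α is the nuclear receptor that holds much of the hepatocyte programme in place, C/EBPα is the leucine zipper factor of the mature, metabolically active hepatocyte, and PROX1 is a homeodomain protein that acts largely as a corepressor of nuclear receptors in liver. These factors are known to bind each other's promoters and many of the same enhancers, and HNF6 was described early as an activator of Foxa2 and Hnf4a.

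The promoters of Foxa2 and Hnf4a are printed because they are the windows among these genes that hold the core of the ONECUT recognition sequence, and that of Onecut1 because its transcript is the one depleted. RefSeq promoter windows (assembly GRCm38.p6, 250 bases before to 50 after a transcript start) were at hand for 7 of the 9 genes, 11 windows in all. Onecut2 and Onecut3 were without one. Each sequence runs 5′ to 3′ on the strand of its gene and stops before the first annotated base of the gene, and capitals mark ATTGAT or its reverse complement. The first is the Foxa2 window at chr2:148046970-148047219 (minus strand), the second the upstream Hnf4a window at chr2:163506607-163506810 (plus strand), and the third the Onecut1 window at chr9:74861671-74861920 (plus strand).
Foxa2: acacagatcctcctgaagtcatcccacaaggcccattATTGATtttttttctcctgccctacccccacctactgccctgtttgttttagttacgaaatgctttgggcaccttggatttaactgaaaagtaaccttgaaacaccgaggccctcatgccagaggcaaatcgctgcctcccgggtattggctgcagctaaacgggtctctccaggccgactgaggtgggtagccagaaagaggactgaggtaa
Hnf4a: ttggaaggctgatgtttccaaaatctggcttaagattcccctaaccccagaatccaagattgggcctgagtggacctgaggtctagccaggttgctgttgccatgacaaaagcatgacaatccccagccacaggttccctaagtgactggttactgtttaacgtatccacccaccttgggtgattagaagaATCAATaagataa
Onecut1: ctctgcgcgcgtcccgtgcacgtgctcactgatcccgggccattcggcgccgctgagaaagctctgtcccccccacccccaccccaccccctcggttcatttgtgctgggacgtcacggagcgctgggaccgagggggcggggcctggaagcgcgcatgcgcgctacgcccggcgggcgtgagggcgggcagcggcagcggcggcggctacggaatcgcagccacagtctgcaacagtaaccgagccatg

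ATTGAT, searched on both strands, was found in 2 of the 11 windows and in 7.54% of all 32851 RefSeq windows of this length. Of the 3 Foxa2 windows only the printed one held it, beginning 213 bases before that transcript start. In Hnf4a it lay 59 bases before the start of the upstream transcript, on the opposite strand, and the window at the downstream Hnf4a start did not hold it. Which Foxa2 or Hnf4a start was in use in these livers was not measured. Both copies were part of the longer TATTGAT, which contains ATTGAT and was found in 2.05% of all windows. The Onecut1 window held neither and was rich in G and C (71.6%, against 50.8% for the Foxa2 and 46.6% for the Hnf4a stretch). The FOXA core TGTTTAC was found in 1 of the 11 windows, that of Foxa1, and in 3.65% of all windows. CAAAGTCCA, which HNF4α binds, and the C/EBP palindrome TTGCGCAA were in 0 of the 11 (0.475% and 0.183% of all windows). A match in a window is a string of letters, not a measured site of binding.

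The values read as log2 expression, with array medians of 6.89 to 6.97. All 9 genes lay above 6.18 on every array, the 95th percentile of 1016 probe sets of olfactory receptor genes, which serve here as a gauge of background. The hepatocyte markers stood at 13.29 to 13.45 on average over 8 genes and overlapped between the groups. Arrays numbered 1 and 2 differed from arrays 3 and 4 in both groups, and the labels do not say what the numbers stand for. With the group as a term, 1383 genes (7.08%) passed an adjusted p of 0.05 between the sides. Kupffer cell markers (12 measured) averaged 7.61 to 8.48 on arrays 1 and 2 and 8.80 to 9.34 on arrays 3 and 4, and endothelial markers (10 measured) 8.35 to 8.80 and 8.97 to 9.31. Between WT and HNF6KO these lists overlapped, and so did those of bile duct cells (10 measured, 6.10 to 6.16 in WT and 6.11 to 6.24 in HNF6KO), stellate cells, lymphocytes, neutrophils and pancreas. The 3 measured erythroid markers averaged 7.39 to 7.50 in WT and 6.90 to 7.30 in HNF6KO, without overlap. Their log2 changes ran from -0.98 to -0.03 with a median of -0.10, so 1 gene weighed most in that average. Of these 3, 2 were lower without overlap, against 3.21% of all genes. Of the 77 genes measured over all marker lists 0 passed between the groups in limma, where 0.399% of all genes did. At an unadjusted p under 0.05, 2 were higher and 2 lower in HNF6KO (4.30% and 5.21% of all genes). The part of any of these cell types in the differences given here was not tested.

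Onecut1 was the 1 gene of the 9 that passed the threshold, and it fell. On WT arrays 1 to 4 it read 10.17, 9.87, 10.45 and 10.52 (log2), whereas HNF6KO arrays 1 to 4 read 9.32, 9.05, 8.67 and 8.70. The groups lay apart, and they lay further apart on arrays 3 and 4, where WT was at its highest and HNF6KO at its lowest. The mean ± SD (n = 4) was 10.25 ± 0.30 for WT and 8.93 ± 0.31 for HNF6KO. The drop of 2.49-fold, a log2 change of -1.32 ± 0.18 (SE), passed over all genes (adjusted p = 0.0273). The share of all genes called was 0.399%, and 0.241% were called lower. In whole tissue, fewer cells that make a transcript and less of it per cell cannot be told apart. Where the probe set reads the Onecut1 transcript, and how the gene or its transcript was altered, are not stated, so what is left of the signal is no measure of remaining HNF6. The call was lost without WT array 1, 3 or 4 (adjusted p = 0.0886, 0.0954 and 0.0633) and without HNF6KO array 3 or 4 (0.0759 and 0.0667), with log2 changes of -1.45 to -1.23 over all 8 arrays left out in turn.

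The Onecut1 difference was larger in value on arrays 3 and 4 than on arrays 1 and 2. On arrays 1 and 2 it was -0.83, or 1.78-fold, and on arrays 3 and 4 it was -1.80, or 3.49-fold. The difference between these was -0.97 ± 0.17 (SE), with an unadjusted p = 4.93e-04 and an adjusted p = 0.442 (limma interaction term). Of 19540 genes 0 passed that test after adjustment and 2047 (10.5%) had an unadjusted p under 0.05. With HNF6KO arrays 3 and 4 left out, the log2 change was -1.06 (adjusted p = 0.0983).

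**Figure D1:**
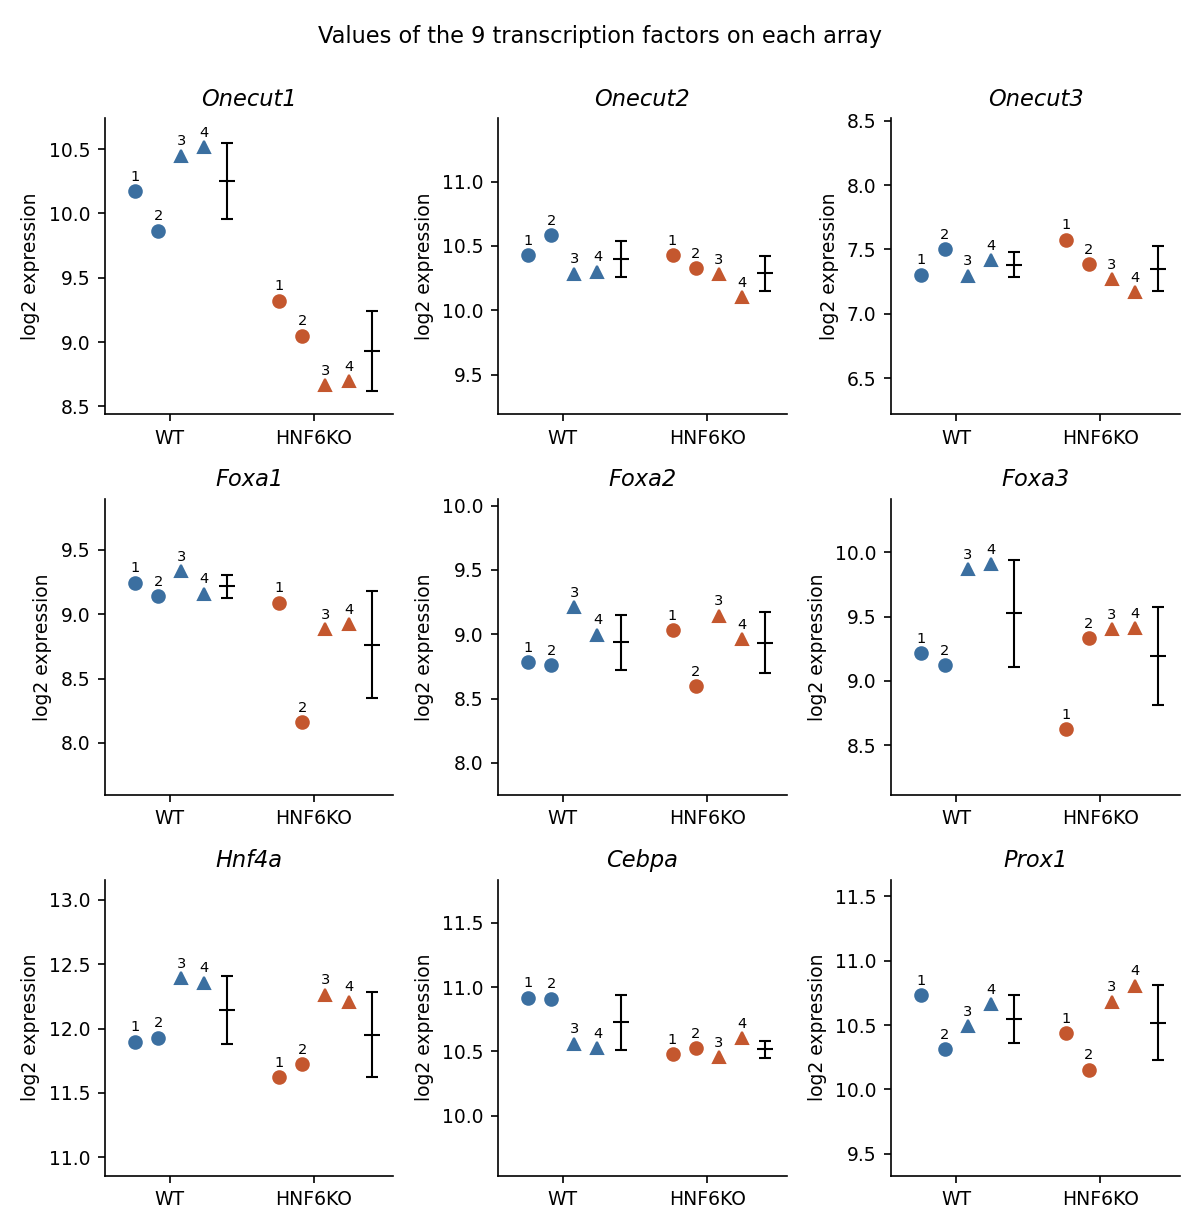
Log2 expression (vertical axis, the same span in every panel) of the 9 genes on each array. Blue points are WT and orange points HNF6KO, the digit is the array number, circles are arrays 1 and 2 and triangles arrays 3 and 4, and bars give the mean ± SD of 4 arrays. The Onecut1 groups lie furthest apart (means 10.25 and 8.93), and Hnf4a is higher on the triangles than on the circles in both groups.

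Neither paralog of Onecut1 passed the test. Onecut2, a homeodomain factor with a DNA-binding region much like that of HNF6, read 10.43, 10.58, 10.28 and 10.30 in WT and 10.43, 10.33, 10.28 and 10.10 in HNF6KO, in the order of array numbers. The highest value was a WT one and the lowest an HNF6KO one, and the groups overlapped. The log2 change was -0.11 ± 0.09 (SE, 95% interval -0.31 to 0.09, adjusted p = 0.775), so a rise of more than 0.09 lay outside the interval of this fit. Over the alternatives the upper limit for Onecut2 ran from 0.02 (with a term for arrays 1 and 2 against 3 and 4) to 0.20 (without HNF6KO arrays 3 and 4). Onecut3, the third member of the family, read 7.31, 7.50, 7.30 and 7.42 in WT and 7.58, 7.39, 7.27 and 7.17 in HNF6KO. HNF6KO arrays held both its highest and its lowest value. Its log2 change was -0.03 ± 0.09 (95% interval -0.24 to 0.18, adjusted p = 0.963), and of the 9 genes it lay nearest to the background gauge. Its lowest value, 7.17, was above the 6.18 of that gauge, and whether background understates its change was not tested.

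Among the pioneer factors Foxa1 had the largest difference, and none of the 3 Foxa genes passed the test. Foxa1 read 9.24, 9.14, 9.33 and 9.16 in WT and 9.09, 8.16, 8.88 and 8.92 in HNF6KO, in the order of array numbers. Every HNF6KO array was below every WT array, by a wide margin on HNF6KO array 2 and a narrow one on HNF6KO array 1. With Onecut1, the gene depleted by design, this made 2 of the 9 genes lower without overlap, against 3.21% of all genes. Foxa1 was thus the only one besides the depleted gene. The means were 9.22 ± 0.09 in WT and 8.76 ± 0.41 in HNF6KO (SD, n = 4), and the log2 change was -0.45 ± 0.18 (SE), or 1.37-fold (95% interval -0.85 to -0.05, adjusted p = 0.450). Without HNF6KO array 2 it was -0.25 (adjusted p = 0.314), and over all alternatives the adjusted p ran from 0.156 to 0.684.

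Foxa2, with the ONECUT core printed above in 1 of its 3 promoter windows, showed the smallest difference of the 9. It read 8.78, 8.76, 9.21 and 8.996 in WT and 9.03, 8.59, 9.14 and 8.96 in HNF6KO, in the order of array numbers. The groups covered nearly the same span. The means were 8.94 and 8.93 (SD 0.21 and 0.24, n = 4), with a log2 change of -0.0034 ± 0.14 (SE, 95% interval -0.31 to 0.30, adjusted p = 0.998) whose sign turned under quantile normalization, median centring and cyclic loess (0.0066, 0.0013 and 0.0073). Foxa3, which encodes the family member HNF-3γ, read 9.21, 9.12, 9.87 and 9.91 in WT and 8.62, 9.33, 9.40 and 9.41 in HNF6KO. Its 4 highest and 4 lowest arrays followed the array numbers more closely than the genotype: arrays 3 and 4 lay above arrays 1 and 2 throughout (0.57 ± 0.14, SE, adjusted p = 0.0410 with the group as a term). The Foxa3 difference between genotypes was -0.33 ± 0.23 (95% interval -0.86 to 0.19, adjusted p = 0.736). It was -0.19 on arrays 1 and 2, where the groups overlapped, and -0.48 on arrays 3 and 4, where HNF6KO lay below WT without overlap, as did 31.5% of all genes on those arrays.

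Hnf4a separated the arrays by number more than by genotype, and within each side HNF6KO was the lower group. WT arrays 1 to 4 read 11.90, 11.93, 12.39 and 12.36, and HNF6KO arrays 1 to 4 read 11.62, 11.72, 12.26 and 12.21. Arrays 3 and 4 were higher than arrays 1 and 2 by 0.51 ± 0.05 (SE, adjusted p = 0.00441), so the genotypes overlapped over all 8 arrays. The Kupffer and endothelial marker lists were also higher on those arrays, in both genotypes. The log2 change between genotypes was -0.19 ± 0.18 (SE, 95% interval -0.59 to 0.21, adjusted p = 0.821). With 1 array left out it lay between -0.29 (without HNF6KO array 3) and -0.08 (without HNF6KO array 1), and without HNF6KO arrays 3 and 4 it was -0.47 (adjusted p = 0.312). With the side of the array numbers as a term the error was smaller, -0.19 ± 0.05 (95% interval -0.30 to -0.08, limma unadjusted p = 0.00359). The Hnf4a change did not pass over all genes in that fit (adjusted p = 0.119). Both genotypes have the same array numbers on each side, so the term could alter the error but not the change. The values were -0.24 within arrays 1 and 2 and -0.14 within arrays 3 and 4. Hnf4a, Foxa1 and Onecut1 were the 3 genes of the 9 whose HNF6KO arrays lay below the WT arrays within both sides, which 7.10% of all genes did. Onecut1 is the gene depleted, so its place in that count was set by the design. The sign of the Hnf4a change turned with array quality weights (0.014), which gave HNF6KO arrays 1 and 2 the lowest weights (0.350 and 0.527).

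Cebpa and Prox1 did not pass either. Cebpa read 10.92, 10.91, 10.56 and 10.53 in WT and 10.48, 10.53, 10.45 and 10.60 in HNF6KO, in the order of array numbers. WT arrays 1 and 2 stood above the other 6 arrays, which lay close together. The log2 change was -0.21 ± 0.10 (SE, 95% interval -0.44 to 0.01, adjusted p = 0.548). It was -0.41 on arrays 1 and 2, where HNF6KO lay below WT without overlap (20.8% of all genes did), and -0.01 on arrays 3 and 4, and that difference did not pass over all genes (0.40 ± 0.10, SE, unadjusted p = 0.00423, adjusted p = 0.447). Prox1 read 10.73, 10.31, 10.49 and 10.66 in WT and 10.44, 10.15, 10.68 and 10.81 in HNF6KO. It was lower in HNF6KO on arrays 1 and 2 by 0.23 on the log2 scale with overlap, and higher on arrays 3 and 4 by 0.17 without overlap (20.3% of all genes). Over all 8 arrays the Prox1 change was -0.03 ± 0.15 (95% interval -0.36 to 0.30, adjusted p = 0.978), and the difference between sides was 0.39 ± 0.21 (adjusted p = 0.533).

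Side by side, the log2 changes of the 9 genes ran from -1.32 to -0.0034 and had a median of -0.19, where the median of all genes was -0.01. All 9 were below 0, as were 57.4% of all genes, but Foxa2 crossed 0 under each of the 3 other scalings. At an unadjusted p under 0.05, Onecut1 and Foxa1 were lower, against 5.21% of all genes. With the term for the array numbers, 5 of the 9 were lower at that level (Onecut1, Foxa1, Foxa3, Hnf4a and Cebpa, against 7.96% of all genes), and Onecut1 alone passed over all genes (adjusted p = 0.0139), where 1.25% of all genes did. Onecut1 is the gene depleted, so its place in each of these counts was set by the design and says nothing about the other members. The split of the array numbers had been seen in these data before that term was chosen.

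**Figure D2:**
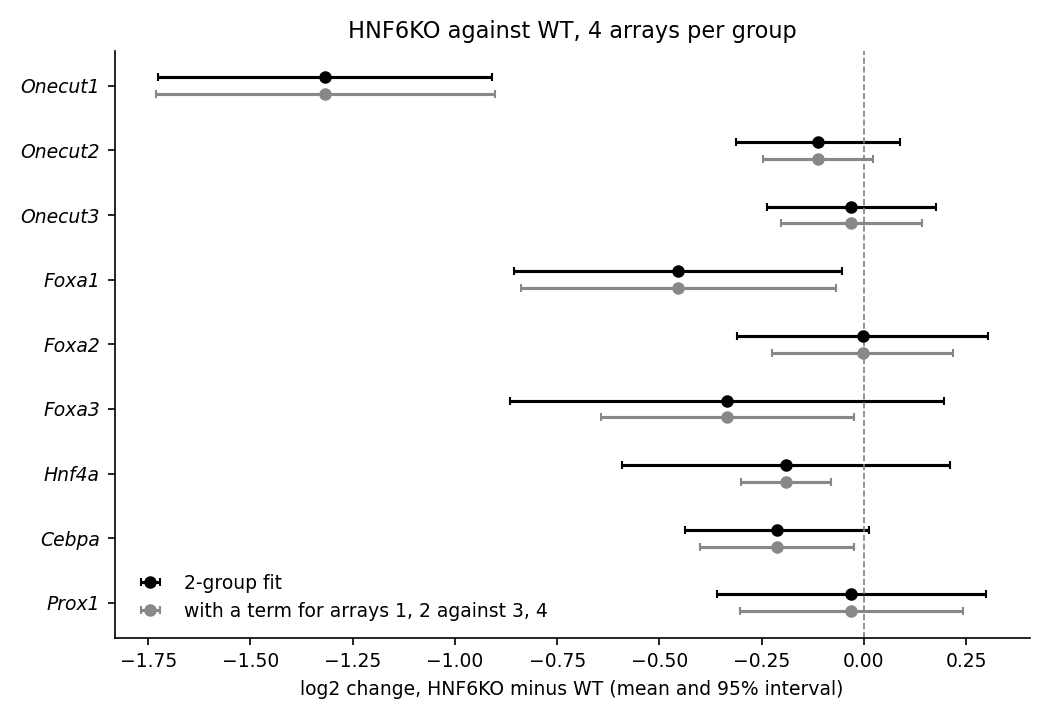
Log2 change, HNF6KO minus WT (horizontal axis), of the 9 genes with its 95% interval, from the fit with the groups alone (black) and with a term for arrays 1 and 2 against 3 and 4 (grey). The Onecut1 interval (-1.72 to -0.91) lies apart from those of the other genes, and the Hnf4a interval narrows from -0.59 to 0.21 to -0.30 to -0.08.

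Within the genotypes, no relation of the other 8 genes with Onecut1 from array to array passed a test. Because Onecut1 falls into separate groups, each array was expressed as its deviation from its group mean, and the correlation was taken over these 8 deviations with an exact permutation of arrays within groups (576 arrangements, two-sided). On the deposited values Cebpa had the strongest relation, and it was inverse (Pearson r = -0.66, exact p = 0.113, Spearman rho = -0.55, exact p = 0.208). After adjustment over the 8 genes its p-values were 0.903 and 0.872 by the same exact permutation. Without HNF6KO array 3 and WT array 4, the arrays farthest from the Onecut1 median over all 8 arrays, the Cebpa r was -0.77 (exact p = 0.111 over 6 arrays). The largest Onecut1 deviations from the group means were on HNF6KO array 1 (0.39) and WT array 2 (-0.39). Both arrays stayed in, so this setting is no check on them. After quantile normalization the Cebpa r was -0.36, and that of Onecut3 was larger in size (0.55). With deviations taken from the mean of each pair of arrays 1 and 2 or 3 and 4 the Cebpa r was -0.13, and Prox1 (0.97), Hnf4a (-0.79), Foxa1 (0.69), Foxa3 (-0.54) and Foxa2 (0.49) were all larger in size. Which gene ranked first thus changed with the setting. Onecut3 had r = 0.42 (exact p = 0.352) and rho = 0.26 (exact p = 0.576). The r of Foxa2 was 0.21, of Prox1 -0.20, of Hnf4a -0.17, of Onecut2 -0.07, of Foxa3 0.05 and of Foxa1 0.04, with exact p = 0.637 to 0.964. Their rho ran from -0.45 (Hnf4a) to 0.33 (Foxa2), with exact p = 0.312 to 0.872, and all adjusted exact p-values were 0.872 or higher. In the values, Hnf4a was high on arrays 3 and 4 of both genotypes, whereas Onecut1 was high there in WT and low there in HNF6KO.

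**Figure D3:**
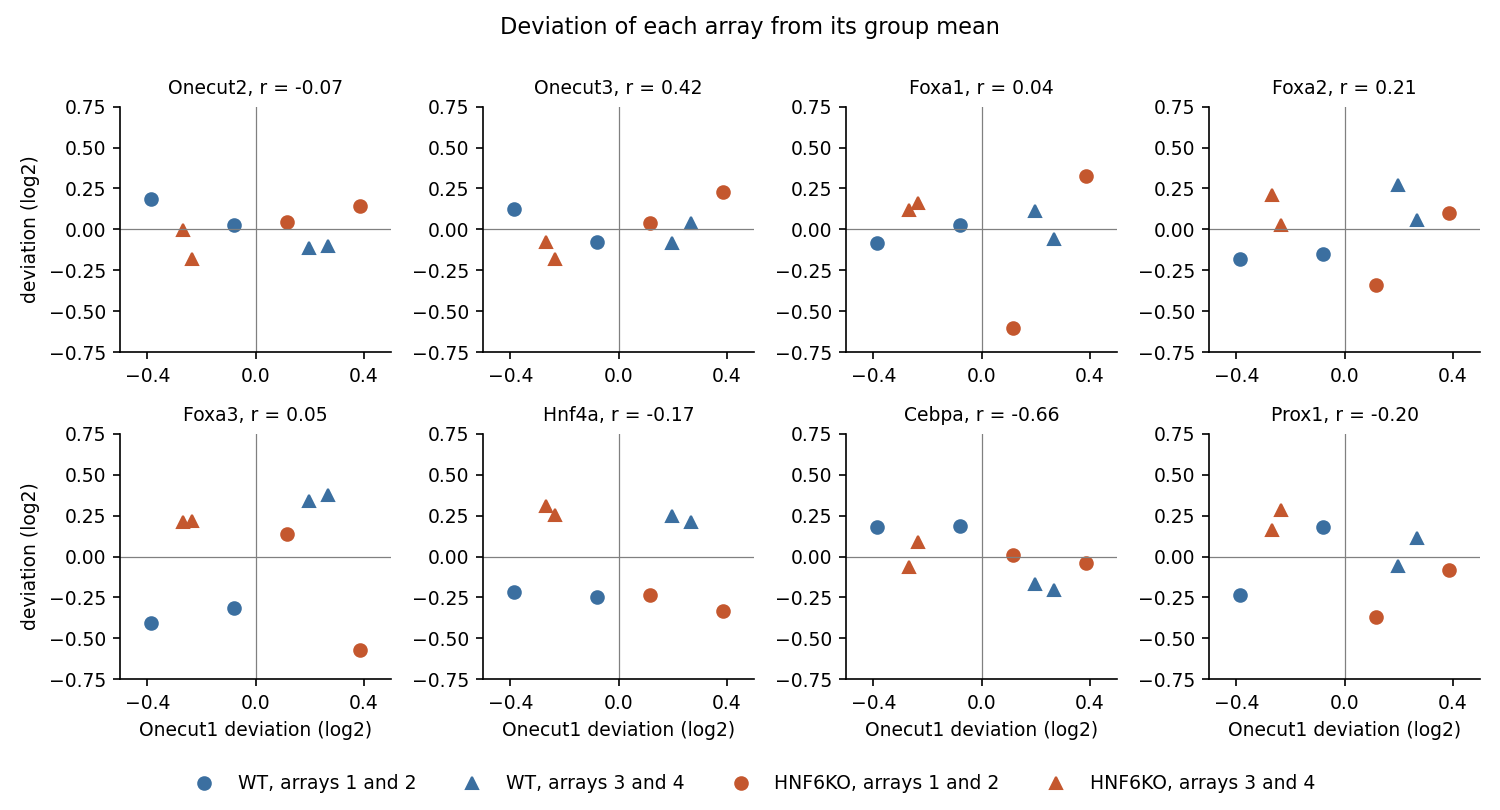
Deviation of each array from its group mean (log2) for Onecut1 (horizontal axis) and each of the other 8 genes (vertical axis), with Pearson's r over the 8 arrays. Blue is WT, orange HNF6KO, circles arrays 1 and 2, triangles arrays 3 and 4. Points scatter without a common line, and Cebpa has the largest r in size (-0.66).

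The genes whose deviations were most like those of Onecut1, among 9455 genes above the median level, were Ipmk (r = 0.96), Vwa1 (0.94), Tmem179 (0.93), Plcxd1 (0.93) and Slitrk5 (0.93), each over 8 arrays and with no test. Ipmk, an inositol polyphosphate kinase, read 10.13, 10.06, 10.24 and 10.25 in WT and 10.09, 9.996, 9.88 and 9.96 in HNF6KO. It followed Onecut1 upward on WT arrays 3 and 4 and downward on HNF6KO arrays 3 and 4. These 5 genes were picked for the highest r among the 9455, so their likeness to Onecut1 is no separate result. None of the 5 passed the test between genotypes (log2 changes of -0.19 to 0.02, adjusted p = 0.377 to 0.974).

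In a wider set of liver transcription factors most changes were slightly below 0 and none passed. Of 40 on a list written with earlier results of these data known, 37 were measured. In limma 0 passed over all genes (0.399% of all genes did), 6 were lower and 1 higher at an unadjusted p under 0.05 (5.21% and 4.30% of all genes), and 29 of 37 changes were below 0 (57.4% of all genes), with a median of -0.05. Esr1, the oestrogen receptor α, stood out upward. It read 8.09, 8.52, 8.04 and 8.45 across WT arrays 1 to 4 and 9.01, 10.26, 9.48 and 9.59 across HNF6KO arrays 1 to 4. The groups were well apart, and the log2 change of 1.31 ± 0.24 (SE) missed the threshold (adjusted p = 0.0687). Hhex, a homeobox factor of liver and bile duct development, was the furthest down. It read 10.18, 10.12, 10.16 and 10.09 in WT and 9.83, 9.49, 9.83 and 9.58 in HNF6KO. Its groups did not overlap either, with a log2 change of -0.45 ± 0.08 (SE, adjusted p = 0.0695). Esr1 and Hhex both passed with the term for the array numbers (adjusted p = 0.0394 and 0.0406). The COUP-family receptor gene Nr2f6 had a change of -0.27 ± 0.09 (adjusted p = 0.333), and Tcf7l2, the partner of β-catenin in Wnt signalling, one of -0.34 ± 0.11 (adjusted p = 0.344). Nr5a2, which encodes the nuclear receptor LRH-1, had a change of -0.14 ± 0.10 (adjusted p = 0.717).

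**Figure D4:**
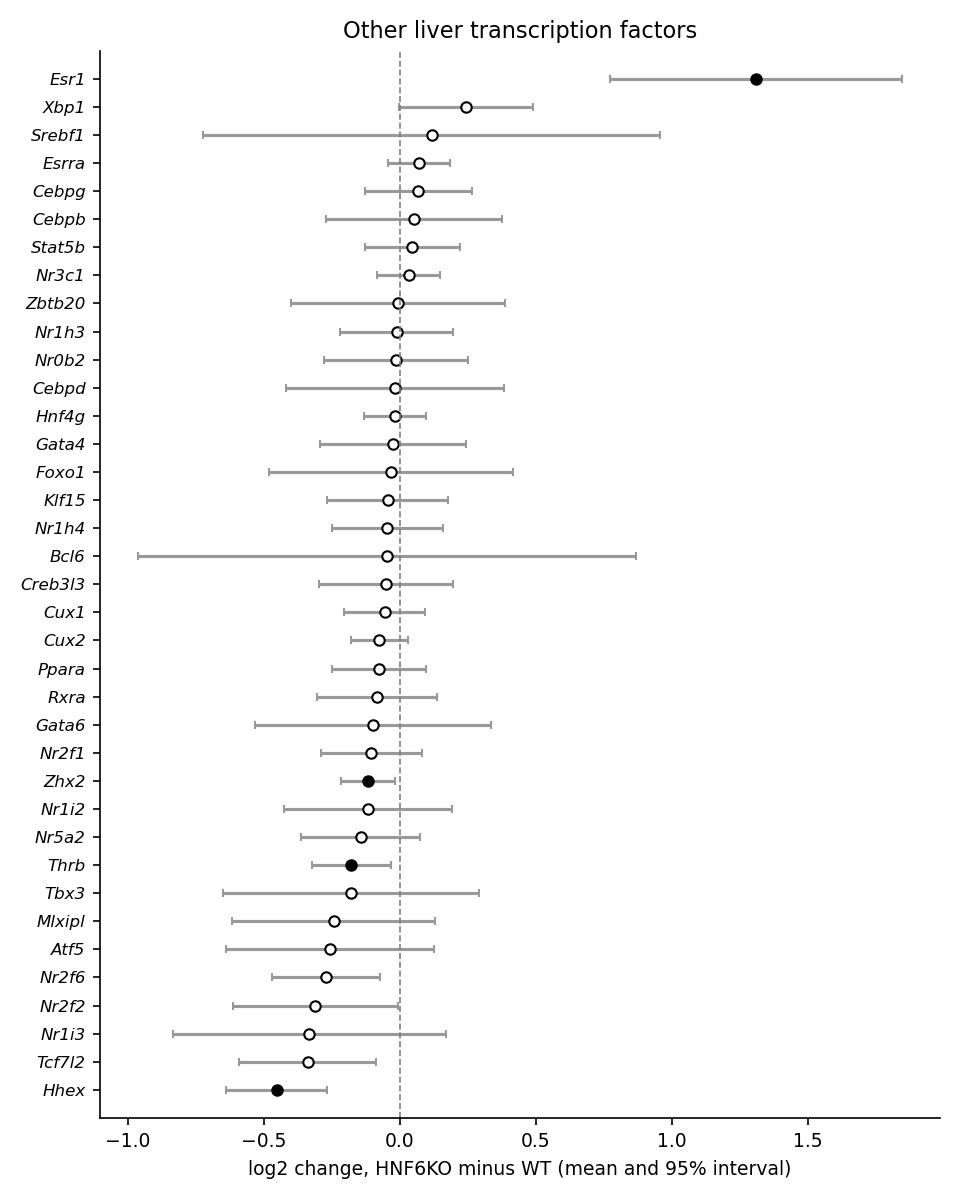
Log2 change, HNF6KO minus WT (horizontal axis), with its 95% interval for the 37 measured liver transcription factors outside the 9. Filled points mark genes whose groups of 4 arrays do not overlap. Esr1 (1.31) lies apart from the rest on the right and Hhex (-0.45) is furthest to the left.

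HNF6KO array 2 was the extreme array for several of these genes. It held the lowest value of all 8 arrays for Foxa1 (8.16), Foxa2 (8.59), Prox1 (10.15) and Hhex (9.49), and the highest for Esr1 (10.26). This array did not hold the lowest HNF6KO value of Onecut1, which was on array 3 (8.67).

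Genes of the partner complexes and known target genes were counted in the same way, against 0.399% of all genes past the threshold and, at an unadjusted p under 0.05, 5.21% lower and 4.30% higher. At these shares short lists hold few such genes or none, so nothing is read from a low count. Groups lay apart for 3.21% of all genes in the lower direction and 2.45% in the higher one. Of 11 measured cofactors and partners 0 passed in limma and 2 were lower at an unadjusted p under 0.05, with a median of -0.07. These were Crebbp, an acetyltransferase coactivator (-0.15 ± 0.05, groups apart, adjusted p = 0.346), and Nr1d1, which encodes REV-ERBα (-0.76 ± 0.31, adjusted p = 0.477). Tbl1xr1, a subunit of the NCoR complex, had -0.19 ± 0.09 (adjusted p = 0.537), the coactivator Ppargc1a 0.44 ± 0.20 (adjusted p = 0.538) and the deacetylase Hdac3 -0.07 ± 0.07 (adjusted p = 0.838). Ncor1 was not analysed here.

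The textbook target lists held 0 genes past the threshold in limma, a count that the 0.399% of all genes gives for lists this short. Of 11 measured HNF6 targets, which include Foxa2 and Hnf4a described above, 0 were past an unadjusted p of 0.05 in limma. Their median was 0.02. Ttr, the thyroid hormone carrier, had a change of 0.09 ± 0.05 (adjusted p = 0.595), with its groups apart. Of 21 measured HNF4α targets 1 was higher and 1 lower at that level, with a median of 0.01. They were Apoa4, an apolipoprotein of triglyceride-rich particles (0.86 ± 0.19, groups apart, adjusted p = 0.134), and Cyp27a1, the sterol 27-hydroxylase (-0.33 ± 0.10, adjusted p = 0.327). Of 12 measured FOXA targets 1 was higher and 1 lower, with a median of 0.03. The lower one was Slc10a1, the bile acid uptake transporter (-0.38 ± 0.14, groups apart, adjusted p = 0.406), and the higher one Cps1, which opens the urea cycle (0.14 ± 0.06, adjusted p = 0.521). Cps1 was also the 1 gene past that level among 12 measured C/EBPα targets (median 0.02). Of 7 measured PROX1 partners and their targets, again including Hnf4a, 0 were past it in limma (median -0.01). Alb, the most used marker of the hepatocyte, had a change of 0.08 ± 0.04 (groups apart, adjusted p = 0.644).

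Among all 15328 measured genes with a RefSeq window, 0.424% were called and the median log2 change was -0.01. The 1041 genes with ATTGAT in a window had a median of -0.02, and 0.672% of them were called (6 lower and 1 higher). Of the 289 with TATTGAT, as in the printed Foxa2 window and the upstream window of Hnf4a, 2 were called, both lower. They were Mup3, a major urinary protein gene (-1.05 ± 0.08, adjusted p = 0.00228), and Nlrp6, a sensor of the inflammasome family (-0.77 ± 0.13, adjusted p = 0.0489). Of the 86 genes with CAAAGTCCA in a window 2 were called (2.33%), 1 lower and 1 higher. Of the 543 with TGTTTAC and the 39 with TTGCGCAA 0 were called, against the same 0.424%. A larger share was thus not particular to the ONECUT core. All these shares rest on few called genes and are descriptions without a test.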

How the data were processed

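The authors deposited 1 table of 22725 probe sets by 8 arrays, whose values are read as log2 expression from their range (3.69 to 14.1). The log base, background correction, normalization and summarisation are not stated, so a true shift of most transcripts may have been scaled away. Per the labels' protocols, Trizol RNA was biotin-labelled with a whole-transcript kit. No value was changed. Probe sets with 1 symbol (21113; 43 had several, 1569 none) were reduced to the brightest per gene by mean over the 8 arrays, which left 19540 genes. RefSeq tables (GRCm38.p6) gave names and promoter windows.

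The comparison of HNF6KO with WT used limma 3.58.1 (lmFit, eBayes; R 4.3.3). P-values were Benjamini-Hochberg adjusted over all 19540 genes, with 0.05 as the threshold. Log2 changes are HNF6KO minus WT with the moderated SE. Correlations used exact permutation in Python 3.11.15. The step was tested on simulated data. The members and lists were chosen with earlier results of these data known. Named genes are the 9 members, up to 4 per list with the smallest p, Nr1d1, Hdac3, Ncor1, Nr5a2 and others not reported here, and the 5 most like Onecut1. Mup3 and Nlrp6 were named after their values were seen. Alternatives were other normalizations, a filter at the 40th percentile, variance models, weights, probe set rules, a replicate block, terms and subsets by array number, each array left out, and a threshold of 0.1.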

Additional observations from a re-analysis of the deposited data

Results flagged for a closer look

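HNF6KO array 1 stood far below the other HNF6KO arrays for Foxa3, at 8.62 against 9.33 to 9.41, a gap of 0.902 of the group's range where 0.829 is the critical value for 4 arrays. WT array 1 stood below the other WT arrays for Tgfbr2, the type II TGF-β receptor gene on the HNF6 target list, at 8.02. WT array 2 stood below the other WT arrays for Hdac3, at 9.19. These 3 came from 72 groups of 4 arrays that were checked, and chance alone marks about 1 in 20 such groups. Without HNF6KO array 1 the Foxa3 log2 change was -0.15 (adjusted p = 0.764), against 0.0622 to 0.908 over all its alternatives.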

How the results depend on the processing

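Onecut1 was below 0 in all 22 alternatives (-1.80 to -0.83, adjusted p = 0.00140 to 0.171). The other threshold, the filter, the variance models, the probe set rules, the replicate block and the side term could not move its change from -1.32. Their signs were therefore fixed in advance and add nothing to that count. Onecut1 missed the threshold within arrays 1 and 2 (-0.83), without HNF6KO arrays 3 and 4 (-1.06), where 0 of the 9 members passed, and in 5 of the 8 fits that left out 1 array (-1.34 to -1.23, each with 0 members past the threshold). Over those 8 fits it ran from -1.45 to -1.23, with 0 to 1 members past the threshold. Same-numbered arrays were not taken as pairs. Their deviations from the group means correlated across genes at 0.44, 0.17, 0.51 and 0.02 for numbers 1 to 4, and WT array 2 correlated best with HNF6KO array 1 (0.35). With the array number as a replicate block Onecut1 was -1.32 (adjusted p = 0.0484). That block moved the count of genes past the threshold from 78 to 125, and added Esr1 and Hhex of the liver transcription factors. No member other than Onecut1 passed in any alternative run.

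The count of 78 genes was 162 at a threshold of 0.1, 202 with array weights, 245 with the term for arrays 1 and 2 against 3 and 4, 22 within arrays 1 and 2, 19 without HNF6KO arrays 3 and 4, and 16 to 79 with 1 array left out. The count of liver transcription factors, 0, was 2 at a threshold of 0.1, with array weights, with the block and with that term, 1 above the 40th percentile and within arrays 3 and 4, and 0 to 1 with 1 array left out. Signs turned for genes near 0. Foxa2 was 0.0066, 0.0013 and 0.0073 after quantile normalization, median centring and cyclic loess, 0.11 with array weights, 0.043 within arrays 1 and 2 and -0.074 to 0.11 with 1 array left out. Hnf4a was 0.014 with array weights. Prox1 was 0.089 with array weights, 0.17 within arrays 3 and 4 and -0.13 to 0.092 with 1 array left out. Onecut3 was 0.077 within arrays 1 and 2, 0.10 without HNF6KO arrays 3 and 4 and -0.11 to 0.030 with 1 array left out. The cause was not tested.

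No relation with Onecut1 within groups passed after adjustment on the deposited values or after quantile normalization (exact permutation, 576 arrangements). Without the 2 farthest arrays there are 36 arrangements, where the smallest possible exact p (0.0278) becomes 0.222 for a single relation adjusted over 8 genes, so that setting could not have passed 1 gene alone. The r turned sign for Onecut2 (0.084 without the 2 farthest arrays, 0.24 after quantile normalization) and for Foxa3 (-0.041 without those arrays, -0.54 from pair means). From pair means it also turned for Onecut3 (-0.034) and Prox1 (0.97), where 16 arrangements cannot reach an exact p below 0.125 and likewise could not pass. The number of arrays, the unknown scaling and, for Onecut3, the lowest signal among the members limit these values.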
